A study of Mus musculus with 21 samples.

Results

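Globin transcripts and early erythroid transcripts were followed as 10 genes in sorted mouse bone marrow progenitors. The genes were chosen by name, with earlier results of these data known, as rows of the deposited expression table, and all 10 were found among its 11628 rows. Of these, 3 are globin rows (Hbb-bs, Hbb-b2 and Hba-a2) and 7 are early erythroid genes (Epor, Aqp1, Klf1, Gata1, Gfi1b, Car1 and Car2), and the 2 classes are kept apart below. All 10 passed the filter for testing, which kept 11496 genes that reached 1 RPKM (a read number divided by both the length of the transcript and the size of the library) in at least 3 libraries.

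The libraries came from mice homozygous for a mutation of Etv6, labelled ETV6 mt/mt and written P214L in the study's design text, and from wild-type mice. Etv6 encodes a transcriptional repressor of the ETS family. Each of 3 populations had 4 mutant and 3 wild-type libraries, which gave 21 libraries in 6 groups. Haematopoietic stem cells (HSC) were lineage-negative cells with cKit, Sca1 and CD150 but without FLK2 and CD38. Multipotent progenitors, titled MPP4 in the labels, carried FLK2 besides cKit and Sca1 and lacked lineage markers. Common lymphoid progenitors (CLP) also lacked lineage markers and were sorted for Flk2 and a marker labelled IL7, with little cKit and Sca1. In every group replicate 1 was a 12-week-old female, replicate 2 a 12-week-old male and replicate 3 a 10-week-old female. Mutant replicate 4 was a female, 12 weeks old in HSC and MPP4 and 10 weeks old in CLP. No treatment is labelled, and the sources used here do not give the strain.

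Red cell production begins when a progenitor takes up an erythroid fate under the transcription factors Gata1 and Klf1. Gata1 binds GATA sequences and Klf1 binds CACCC boxes at globin and other red cell genes. Signalling through the erythropoietin receptor then keeps the committed cells alive. Globin RNA builds up late in this sequence, when cells make haemoglobin, and reticulocytes still hold it after the nucleus is lost. Stem cells and multipotent progenitors carry low levels of several erythroid transcripts before commitment, whereas lymphoid progenitors have left the erythroid path.

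Promoters of 5 members are shown because they hold the letters read by the regulators named above, and because these genes followed different patterns across the libraries. Each window runs from 250 bases before to 50 bases after the start of the gene in the RefSeq annotation of GRCm38.p6, 5′ to 3′ on the strand of the gene. Capitals mark a GATA motif (the letters GATA with A or T before them and A or G after them) or a CACCC box (CCNCNCCC), searched on both strands. A run of more than 8 capitals holds overlapping matches of the CACCC box.
Hbb-bs promoter, chr7:103827879-103828178, - strand: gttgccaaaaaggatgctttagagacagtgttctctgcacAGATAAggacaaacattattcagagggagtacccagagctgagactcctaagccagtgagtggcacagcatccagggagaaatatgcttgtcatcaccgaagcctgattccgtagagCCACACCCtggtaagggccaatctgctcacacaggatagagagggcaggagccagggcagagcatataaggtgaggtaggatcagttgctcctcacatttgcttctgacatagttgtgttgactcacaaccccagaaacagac
Hba-a2 promoter, chr11:32296242-32296541, + strand: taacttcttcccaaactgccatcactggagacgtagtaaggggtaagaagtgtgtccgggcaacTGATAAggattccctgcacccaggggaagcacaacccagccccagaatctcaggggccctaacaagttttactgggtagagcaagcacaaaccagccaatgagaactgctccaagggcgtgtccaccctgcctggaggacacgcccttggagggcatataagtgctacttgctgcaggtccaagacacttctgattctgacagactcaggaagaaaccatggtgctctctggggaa
Epor promoter, chr9:21963527-21963826, - strand: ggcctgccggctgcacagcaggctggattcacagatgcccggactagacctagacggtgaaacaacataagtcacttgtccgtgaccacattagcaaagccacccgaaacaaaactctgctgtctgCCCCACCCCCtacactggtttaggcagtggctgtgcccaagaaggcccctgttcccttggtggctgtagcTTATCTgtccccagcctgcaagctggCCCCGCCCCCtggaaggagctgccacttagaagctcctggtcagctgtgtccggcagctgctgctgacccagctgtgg
Klf1 promoter, chr8:84901732-84902031, + strand: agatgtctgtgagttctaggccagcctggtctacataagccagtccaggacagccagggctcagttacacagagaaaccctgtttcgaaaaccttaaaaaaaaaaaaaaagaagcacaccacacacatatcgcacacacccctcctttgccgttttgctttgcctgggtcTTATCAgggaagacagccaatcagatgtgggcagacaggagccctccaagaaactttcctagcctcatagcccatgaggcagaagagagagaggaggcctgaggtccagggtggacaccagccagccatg
Gfi1b promoter, chr2:28621933-28622232, - strand: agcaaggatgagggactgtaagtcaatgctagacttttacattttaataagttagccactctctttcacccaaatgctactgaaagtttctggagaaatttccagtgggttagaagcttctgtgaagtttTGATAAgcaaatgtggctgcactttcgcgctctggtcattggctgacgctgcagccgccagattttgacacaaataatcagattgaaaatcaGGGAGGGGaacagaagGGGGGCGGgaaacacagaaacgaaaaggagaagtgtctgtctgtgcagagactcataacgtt

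RefSeq promoters were matched for 7 of the 10 members, not for Hbb-b2, Car1 or Car2. The GATA motif stood in 5 of these 7 windows and in 29.8% of 32851 mouse promoters of the same length, and no GATA match overlapped a CACCC match. The Hbb-bs window held 1 GATA motif and 1 CACCC box, and the Hba-a2 window 1 GATA motif. In Epor, 1 GATA motif lay between 4 matches of the CACCC box, and Klf1 and Gfi1b held 1 GATA motif each. A CACCC box occurred in 5 of the 7 windows, against 49.5% of all promoters. CCAAT stood in 4 of 7, against 37.4%. A forward TATA box (TATAAA or TATAAG) stood in 2 of 7, those of Hbb-bs and Hba-a2, against 12.3%. The ETS sequence CCGGAAG stood in 0 of the 7 windows and in 8.86% of all promoters. These are matches of letters in a fixed window and not measured binding.

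The labelled populations carried the transcripts of their gates. Flt3, which encodes FLK2, averaged 384 ± 33.4 RPKM in wild-type MPP4 and 14.9 ± 1.91 RPKM in wild-type HSC (SD, n = 3 each), and Il7r averaged 91.3 ± 3.73 RPKM in wild-type CLP and 11.6 ± 4.01 RPKM in wild-type MPP4. Etv6 itself averaged between 65.6 and 105 RPKM in the mutant groups and between 70.3 and 113 RPKM in the wild-type groups, and in limma it was not called between genotypes in any population (adjusted p = 0.917 to 1.00). Its transcript level does not read out the point mutation, so the genotype labels were not checked by it. RPKM summed to 337818 to 376135 per library over the deposited rows, and 2 to 90 rows stood at 0. Sequencing depth is unknown. Separate mice are given by the design text, and p-values measure the spread between these libraries. Whether same-numbered libraries of different populations shared a mouse was not settled here. Each gene has a single spread estimated over all 6 groups, so an SE is not that of the compared groups alone. For Hbb-bs the SD on the log2(RPKM + 1) scale was 0.58 in mutant MPP4 and 0.38 in wild-type CLP, against 3.08 in mutant CLP. Mutant CLP replicate 1 was the lowest mutant CLP library in 9 of the 10 members, and several results that rest on it are given with and without it.

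Globin RNA varied widely between libraries of a single group. The 3 globin rows summed to between 43.6 and 5965 RPKM, a 137-fold range, and made up 0.0129% to 1.64% of all RPKM in a library. Hbb-bs, the adult beta globin gene (GRCm38 chromosome 7, 103826523 to 103827928), was the most abundant of all rows in some libraries and ranked 5166 in another. In HSC it stood at 16.1, 1696, 366 and 45.7 RPKM in mutant replicates 1 to 4, against 63.2, 2357 and 83.5 RPKM in wild-type replicates 1 to 3. Replicate 2, the male, was the highest of its group in both genotypes, and the genotypes overlapped.

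In MPP4, Hbb-bs stood at 974, 2529, 1289 and 1557 RPKM in mutant libraries, against 1480, 124 and 727 RPKM in wild-type libraries. Here the male was the highest mutant library but the lowest wild-type library, so the order of the sexes was not the same as in HSC. In CLP it stood at 24.2, 1537, 1100 and 2767 RPKM in mutant libraries, against 517, 568 and 850 RPKM in wild-type libraries. Mutant CLP replicate 1 lay far below its group, and the other 3 mutant CLP libraries lay above all wild-type ones. The ratio of the highest to the lowest library within a group was 105 in mutant HSC against 37.3 in wild-type HSC, 2.60 in mutant MPP4 against 11.9 in wild-type MPP4, and 114 in mutant CLP against 1.64 in wild-type CLP.

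**Figure D1:**
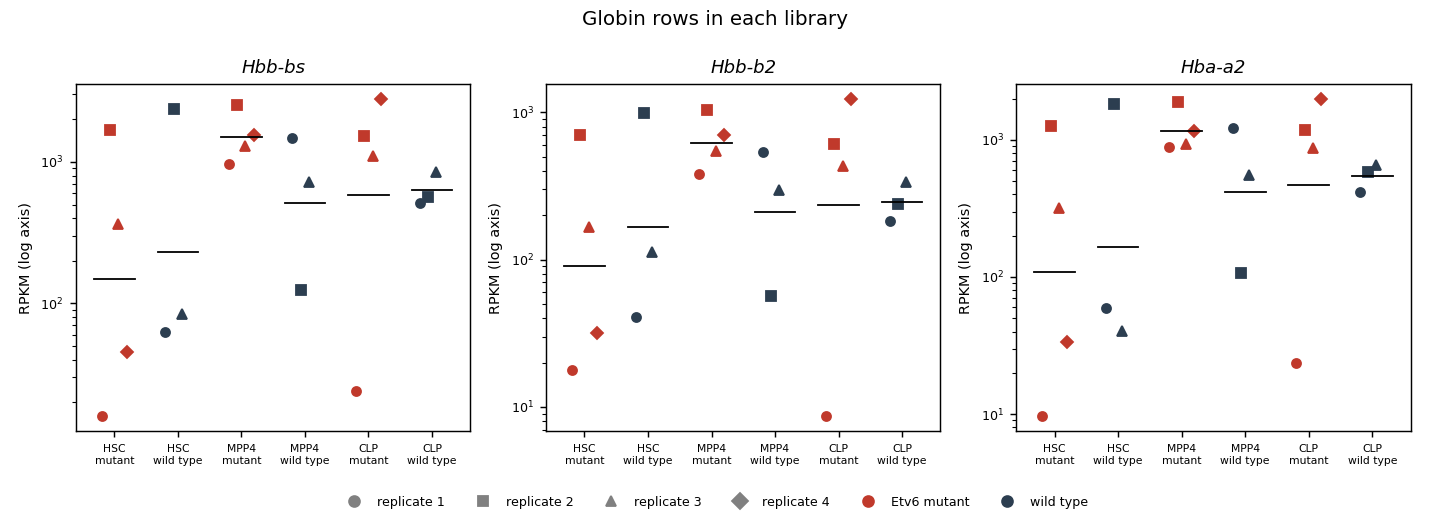
RPKM of Hbb-bs, Hbb-b2 and Hba-a2 (log axis) in each of the 21 libraries by group, with the marker shape giving the replicate number, red for Etv6 mutant and dark blue for wild type; the line is the group mean taken on the log2(RPKM + 1) scale. Hbb-bs spans 16.1 to 2767 RPKM, the 2 male HSC libraries stand highest in HSC, and mutant CLP replicate 1 stands at 24.2 RPKM, below all other CLP libraries.

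Hba-a2, an adult alpha globin gene (chromosome 11, 32296492 to 32297310), went up and down with Hbb-bs. In HSC it stood at 9.75, 1252, 317 and 33.5 RPKM in mutant libraries, against 59.8, 1817 and 40.4 RPKM in wild-type libraries. In MPP4 the values were 891, 1880, 931 and 1163 RPKM in mutant libraries, against 1212, 106 and 556 RPKM in wild-type libraries. In CLP they were 23.5, 1177, 868 and 1972 RPKM in mutant libraries, against 418, 578 and 655 RPKM in wild-type libraries. The libraries that were high or low in Hbb-bs were so in Hba-a2 as well, with the genotypes overlapping in all 3 populations. Hbb-bs divided by Hba-a2, both per transcript length, stayed between 0.982 and 2.07, with a median of 1.30.

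Hbb-b2, a row named for the second adult beta globin gene, held 17.7, 700, 166 and 31.8 RPKM in mutant HSC libraries, against 40.6, 996 and 112 RPKM in wild-type HSC libraries. It ranged over 380 to 1036 RPKM in mutant MPP4 and 56.8 to 541 RPKM in wild-type MPP4, and over 8.72 to 1226 RPKM in mutant CLP and 183 to 335 RPKM in wild-type CLP. Its ratio to Hbb-bs was 0.354 to 0.458 in all 14 MPP4 and CLP libraries and 0.413 to 0.454 in the 3 HSC libraries richest in globin. In the 4 HSC libraries with the least globin the ratio was 1.10 and 0.697 in mutant replicates 1 and 4, and 0.642 and 1.34 in wild-type replicates 1 and 3. Mutant CLP replicate 1, with a globin sum of 56.5 RPKM, had a ratio of 0.360. Adult beta globin genes are nearly identical and the sources used here do not say how shared reads were treated, so the split between Hbb-b2 and Hbb-bs is uncertain. The RefSeq entry of the Hbb-b2 row has coordinates (chromosome 7, 53494 to 54867) far from those of Hbb-bs, so its place in the beta globin locus is not given.

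Transcripts of late erythroid cells were high and low in largely the same libraries as the globins. Of 6 late erythroid markers used here 5 were in the table, all but Ahsp. They were Slc4a1 (the anion exchanger of the red cell membrane), Alas2 (the erythroid enzyme that starts haem synthesis), Epb42, Rhag and Ermap, and none was at 0 in any library. Their summed level in HSC was 15.5, 92.4, 46.3 and 11.8 RPKM in mutant libraries, against 9.86, 76.0 and 8.84 RPKM in wild-type libraries. In MPP4 it was 42.9, 115, 51.9 and 96.5 RPKM in mutant libraries, against 50.1, 9.44 and 14.6 RPKM in wild-type libraries. In CLP it was 1.23, 43.9, 30.1 and 122 RPKM in mutant libraries, against 21.03, 21.5 and 35.9 RPKM in wild-type libraries. The male HSC libraries were again the highest of their groups and mutant CLP replicate 1 the lowest of all 21. In bulk libraries, fewer cells of a type and less RNA per cell cannot be told apart, and the part of such cells in the globin values was not tested.

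**Figure D2:**
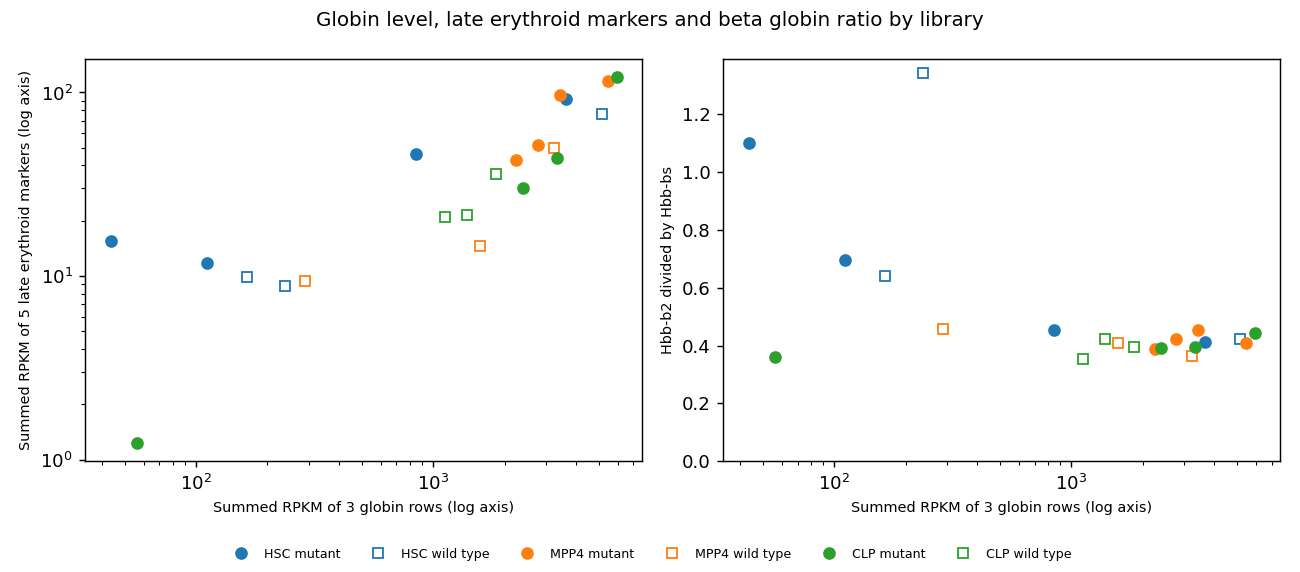
Left, the summed RPKM of 5 late erythroid markers against the summed RPKM of the 3 globin rows (both log axes), and right, Hbb-b2 divided by Hbb-bs against the globin sum (log x axis), with 1 point per library, filled for mutant and open for wild type. Marker sums of 1.23 to 122 RPKM climb with the globin sum, and the ratio lies between 0.354 and 0.458 except in the 4 HSC libraries with the least globin, where it reaches 0.642 to 1.34.

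Spread within groups placed the globins among the most variable genes measured. Their residual SD on the log2(RPKM + 1) scale was 2.31 for Hbb-bs, 2.30 for Hba-a2 and 2.07 for Hbb-b2, at ranks 9, 10 and 11 of 11496 genes, whose median was 0.177. Car1 followed at 1.74 and rank 20. Aqp1, Klf1, Gata1, Gfi1b, Epor and Car2 had SDs of 0.766, 0.759, 0.621, 0.596, 0.482 and 0.427 and lay between ranks 96 and 498. Outside the erythroid lists, the 5 reported genes whose levels over the 21 libraries were most like the mean globin profile were Prg2 (Pearson r = 0.84), Ngp (0.83), Retnlg (0.80), S100a9 (0.79) and Lilr4b (0.78), as descriptions of likeness over libraries that share their populations. Prg2, Ngp, Retnlg and S100a9 are best known from granulocytes. Prg2, the major basic protein of eosinophils, ranged over 48.8 to 1386 RPKM in mutant MPP4 and 1.40 to 173 RPKM in wild-type MPP4, and over 1.08 to 748 RPKM in mutant CLP and 15.2 to 158 RPKM in wild-type CLP.

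The early erythroid genes followed the sorted populations far more closely than the globins did, and most were highest in HSC. Epor encodes the erythropoietin receptor (chromosome 9, 21958897 to 21963576). It stood at 14.7, 11.2, 10.7 and 10.6 RPKM in mutant HSC, against 14.5, 16.8 and 11.6 RPKM in wild-type HSC. In MPP4 it stood at 3.73, 2.85, 2.37 and 2.30 RPKM in mutant libraries, against 0.692, 1.54 and 0.263 RPKM in wild-type libraries. In CLP the values were 0.04, 1.68, 1.45 and 2.82 RPKM in mutant libraries, against 0.347, 1.43 and 1.85 RPKM in wild-type libraries. The genotypes overlapped in HSC and CLP, and in MPP4 every mutant library was above every wild-type one.

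Aqp1 encodes a water channel of the red cell membrane (chromosome 6, 55336299 to 55348555). It stood at 31.7, 28.9, 19.4 and 21.1 RPKM in mutant HSC, against 26.6, 27.5 and 14.7 RPKM in wild-type HSC. MPP4 libraries held 12.5, 16.7, 7.88 and 8.16 RPKM in mutants, against 3.84, 5.25 and 0.509 RPKM in wild type, and again did not overlap. CLP libraries held 0.0890, 4.45, 4.31 and 5.12 RPKM in mutants, against 0.805, 2.42 and 2.90 RPKM in wild type. Mutant CLP replicate 1 was the lowest and the other 3 mutant libraries were the highest.

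Klf1, the erythroid transcription factor that activates beta globin (chromosome 8, 84901982 to 84905291), had a shallower gradient. It stood at 12.6, 13.4, 10.8 and 6.31 RPKM in mutant HSC, against 8.52, 12.3 and 7.89 RPKM in wild-type HSC. In MPP4 it stood at 5.18, 14.1, 4.95 and 9.03 RPKM in mutant libraries, against 4.29, 5.64 and 1.20 RPKM in wild-type libraries, with the genotypes overlapping. In CLP it stood at 0.267, 6.97, 5.99 and 3.71 RPKM in mutant libraries, against 1.27, 2.82 and 4.48 RPKM in wild-type libraries. Gata1 (chromosome X, 7959260 to 7976663) stood at 17.8, 18.3, 18.1 and 13.1 RPKM in mutant HSC, against 21.4, 28.1 and 17.9 RPKM in wild-type HSC. In MPP4 mutant replicate 1 reached 12.9 RPKM while the other mutant libraries had 5.16, 5.42 and 2.74 RPKM, against 3.49, 3.20 and 0.812 RPKM in wild type. CLP libraries held 0.246 to 3.49 RPKM in mutants and 0.801 to 2.42 RPKM in wild type.

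Gfi1b, a zinc finger repressor needed in the erythroid and megakaryocyte lineages (chromosome 2, 28609450 to 28621982), kept a sizeable level in CLP. It stood at 67.0, 65.7, 73.0 and 61.0 RPKM in mutant HSC, against 67.3, 54.9 and 44.5 RPKM in wild-type HSC, and at 20.5, 16.1, 19.3 and 13.9 RPKM in mutant MPP4, against 29.6, 9.52 and 12.8 RPKM in wild-type MPP4. In CLP it stood at 36.3, 21.6, 30.4 and 33.8 RPKM in mutant libraries, against 76.2, 12.3 and 22.8 RPKM in wild-type libraries. Mutant CLP replicate 1, the lowest CLP library in all 6 other early erythroid genes, was the highest mutant CLP library in Gfi1b. Wild-type CLP replicate 1, at 76.2 RPKM the highest Gfi1b value of all libraries, was likewise the lowest wild-type CLP library in Epor, Aqp1, Klf1, Gata1, Car1 and Car2.

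Car1 and Car2 encode carbonic anhydrases of red cells, on chromosome 3 at 14766214 to 14808365 and 14886269 to 14900770. Car2 was by far the most abundant early erythroid transcript per length in HSC and MPP4, and its residual SD over all groups (0.427) was the smallest. In CLP Gfi1b averaged 30.5 RPKM in mutants and 37.1 RPKM in wild type, against 53.4 and 36.8 RPKM for Car2. Car2 stood at 769, 774, 896 and 853 RPKM in mutant HSC, against 848, 732 and 742 RPKM in wild-type HSC. In MPP4 it stood at 293, 367, 281 and 358 RPKM in mutant libraries, against 246, 185 and 140 RPKM in wild-type libraries, without overlap. In CLP it stood at 21.6, 69.2, 44.4 and 78.5 RPKM in mutant libraries, against 27.6, 39.9 and 43.0 RPKM in wild-type libraries. Car1 followed no such order: it ranged over 4.398 to 81.7 RPKM in mutant HSC and 1.23 to 23.8 RPKM in wild-type HSC, over 4.42 to 31.975 RPKM in mutant MPP4 and 0.743 to 43.8 RPKM in wild-type MPP4, and over 0.313 to 15.1 RPKM in mutant CLP and 1.29 to 13.9 RPKM in wild-type CLP.

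**Figure D3:**
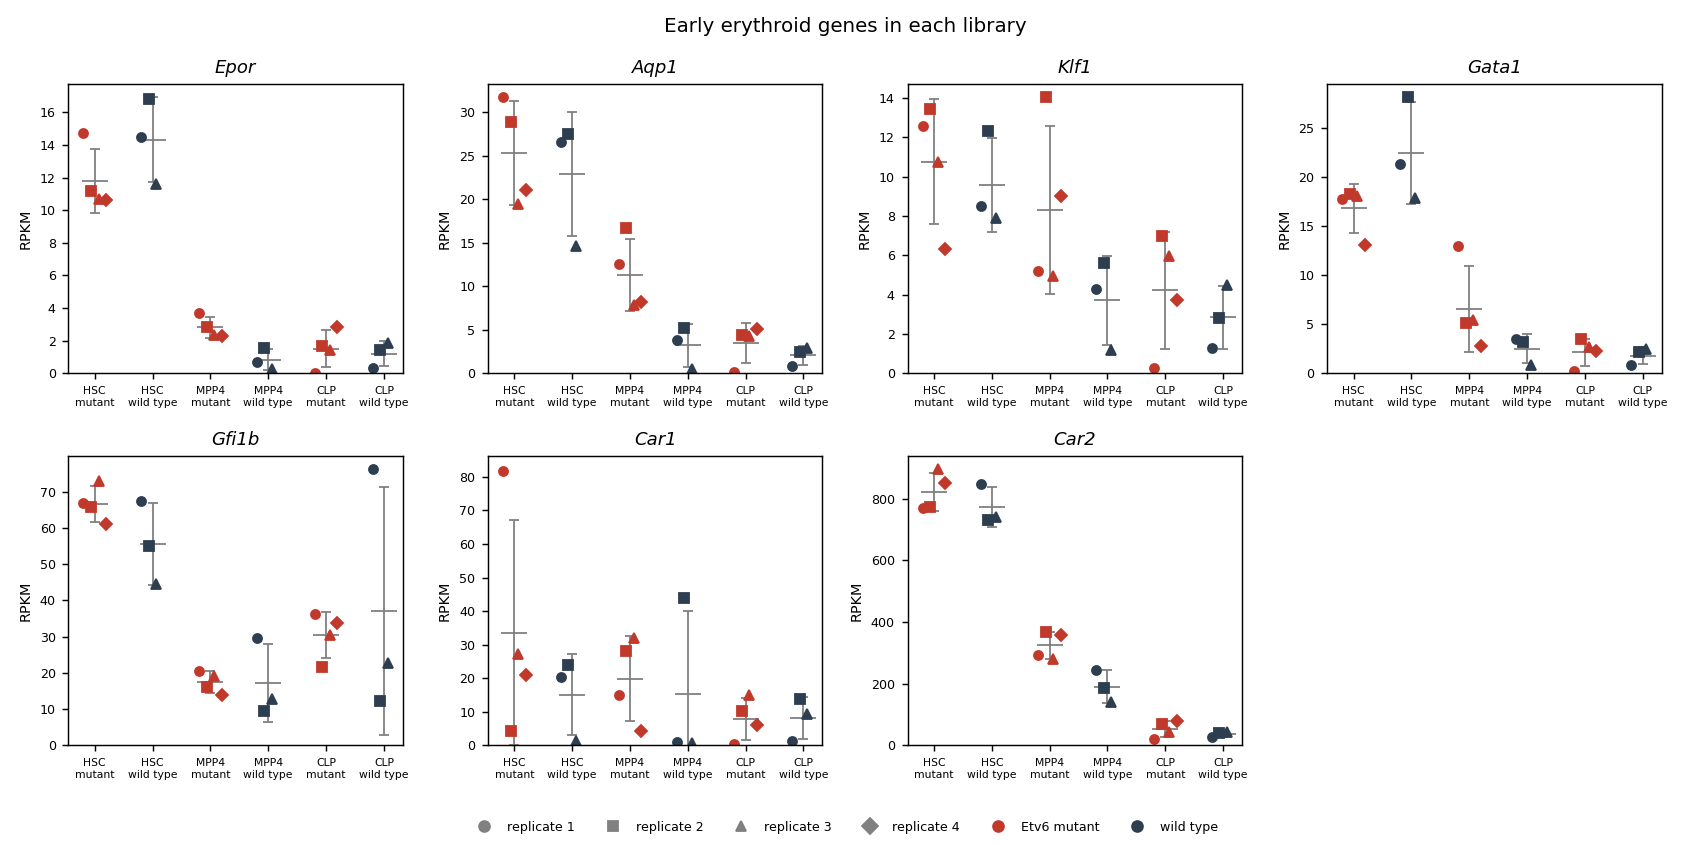
RPKM (linear axes) of 7 early erythroid genes in each of the 21 libraries by group, with the marker shape giving the replicate number and the bars the group mean and SD. Car2 averages 823 RPKM in mutant HSC and 53.4 RPKM in mutant CLP, Epor, Aqp1 and Car2 do not overlap between genotypes in MPP4, and Gfi1b reaches 76.2 RPKM in 1 wild-type CLP library.

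Among genes outside the erythroid lists, the levels most like the mean early erythroid profile over the 21 libraries were those of Optn (Pearson r = 0.93), Dnajb2 (0.93), Vasp (0.93), Adarb1 (0.92) and Mboat2 (0.92). The libraries share their populations, and for deviations from the group means the r of these genes with the mean early erythroid deviation was 0.63, 0.65, 0.52, 0.63 and 0.56 in the same order. Optn encodes the autophagy receptor optineurin. It averaged 6.46 ± 0.944 RPKM in mutant HSC (n = 4) and 5.88 ± 2.03 RPKM in wild-type HSC (n = 3), 3.65 ± 1.498 and 1.67 ± 0.223 RPKM in mutant and wild-type MPP4, and 1.29 ± 0.459 and 0.767 ± 0.164 RPKM in mutant and wild-type CLP.

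Wild-type MPP4 held less of 5 members than wild-type HSC in the limma fit of all groups on the log2(RPKM + 1) scale, where a call means an adjusted p (Benjamini-Hochberg) under 0.05. Epor fell by 3.11 on the log2 scale (SE 0.36, adjusted p = 7.01e-07), Gata1 by 2.83 (SE 0.45, adjusted p = 4.4e-05), Aqp1 by 2.69 (SE 0.55, adjusted p = 0.000596), Car2 by 2.05 (SE 0.31, adjusted p = 2.26e-05) and Gfi1b by 1.77 (SE 0.43, adjusted p = 0.00258). As background, 23.3% of all tested genes were called lower in MPP4 and 16.1% higher. Klf1 had a difference of -1.29 (SE 0.55) that was not called (adjusted p = 0.0684), although its MPP4 libraries all lay below its HSC libraries, as was the case for 30.6% of all genes. It was called in 7 alternatives. Among them were the replicate number as a fixed block (adjusted p = 0.0432) and the replicate within a genotype as a random block (0.0400). Leaving out wild-type MPP4 replicate 2 was another (-1.61, adjusted p = 0.0481). Without wild-type MPP4 replicate 3 the Klf1 difference was -0.81 (adjusted p = 0.303). The globins were not called, with differences of 1.13 for Hbb-bs, 0.33 for Hbb-b2 and 1.33 for Hba-a2, each with an SE of 1.48 to 1.65. Car1 had a difference of -0.95 (SE 1.24).

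Between wild-type CLP and wild-type MPP4, Car2 was the member called, and it fell by 2.33 on the log2 scale (SE 0.31, adjusted p = 2.1e-05), against a background of 8.38% of genes called lower and 4.77% higher. Epor, Aqp1, Klf1 and Gata1 had differences of 0.26, -0.31, -0.23 and -0.27, with SEs of 0.36 to 0.55, and were not called. Gfi1b had a difference of 0.82 (SE 0.43, adjusted p = 0.257), with a wide range over left-out libraries. It was 1.38 and called without wild-type CLP replicate 2 (adjusted p = 0.0306), and 0.11 without wild-type CLP replicate 1 (adjusted p = 0.884). Leaving out wild-type MPP4 replicates 1 and 2 in turn gave 1.27 and 0.50. The 3 globins had differences of 0.22 to 0.38 and Car1 one of 0.37.

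Between wild-type CLP and wild-type HSC, 5 members were called lower, Epor, Aqp1, Gata1, Car2 and Klf1, where 31.7% of all genes were lower and 19.4% higher. The differences were -2.85, -3.00, -3.10, -4.38 and -1.52 in that order. The Klf1 call (adjusted p = 0.0254) was lost without wild-type HSC replicate 2 (0.0829), without wild-type CLP replicate 1 (0.117), with a pseudocount of 0.1 (0.0621) and with quantile normalization (0.0561). Gfi1b had a difference of -0.95 (adjusted p = 0.0723). It was called with the replicate number as a fixed block (adjusted p = 0.0232) and with the replicate within a genotype as a random block (0.0283). Without wild-type CLP replicate 1, the library with 76.2 RPKM, the Gfi1b difference was -1.65 and called (adjusted p = 0.000387), and without wild-type CLP replicate 2 it was -0.38 (adjusted p = 0.456). Hbb-bs, Hbb-b2, Hba-a2 and Car1 had differences of 1.43, 0.56, 1.71 and -0.59 and were not called. These comparisons share libraries with one another.

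The same steps were compared in the mutant. From mutant HSC to mutant MPP4, 4 members were called lower, against 23.1% of all genes called lower and 16% called higher. Epor fell by 1.75 on the log2 scale (SE 0.31, adjusted p = 0.000123), Gata1 by 1.39 (SE 0.39, adjusted p = 0.00749), Gfi1b by 1.89 (SE 0.37, adjusted p = 0.000386) and Car2 by 1.35 (SE 0.27, adjusted p = 0.000429). Aqp1 had a difference of -1.13 (adjusted p = 0.0685) and Klf1 one of -0.40 (adjusted p = 0.546), and Car1 one of -0.44 (SE 1.08). Hbb-bs, Hbb-b2 and Hba-a2 had differences of 3.32, 2.76 and 3.40 (SE 1.28 to 1.43) and were not called, with adjusted p = 0.0723, 0.0967 and 0.0646. With the replicate within a genotype as a random block 7 members were called. They were the 4 named above, Hbb-bs (adjusted p = 0.0393) and Hba-a2 (0.0350) as higher, and Aqp1 (0.0459) as lower. The replicate number as a fixed block added Hba-a2 alone (0.0474). Without mutant HSC replicate 2, the globin-rich male library, the globin differences were 4.49, 3.74 and 4.57 and all 3 were called (adjusted p = 0.0169, 0.0287 and 0.0149). The male library that was highest in mutant MPP4 was kept in that fit. Hbb-bs, Hbb-b2 and Hba-a2 stayed uncalled in 16, 18 and 14 of 20 alternatives, with adjusted p reaching 0.241, 0.270 and 0.231. Their mutant MPP4 and mutant HSC libraries overlapped.

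Between mutant CLP and mutant MPP4, 3 members were called lower, against 16.4% of all genes called lower and 7.86% called higher. Car2 fell by 2.73 on the log2 scale (SE 0.27, adjusted p = 1.94e-07), Aqp1 by 1.66 (SE 0.48, adjusted p = 0.0142) and Gata1 by 1.24 (SE 0.39, adjusted p = 0.0242). Without mutant CLP replicate 1 the Aqp1 difference was -1.07 (adjusted p = 0.0549) and that of Gata1 -0.84 (0.103), so that Car2 alone was called. The Gata1 call was also lost without mutant MPP4 replicate 1, the library with 12.9 RPKM (-0.89, adjusted p = 0.0986). Epor and Klf1 had differences of -0.74 (adjusted p = 0.0889) and -1.02 (adjusted p = 0.131), Car1 one of -1.41 (SE 1.08) and the globins differences of -1.30 to -1.40 (SE 1.28 to 1.43), none called. For these genes the fit without mutant CLP replicate 1 is not given. In that library Hbb-bs stood at 24.2 RPKM. The other mutant CLP libraries held 1100 to 2767 RPKM of it and the mutant MPP4 libraries 974 to 2529 RPKM. Gfi1b had a difference of 0.76 (SE 0.37, adjusted p = 0.149), and its CLP libraries all lay above its MPP4 libraries, as was the case for 9.05% of all genes. Gfi1b was called in 1 of 20 alternatives, with the mutant CLP and MPP4 libraries fitted alone (adjusted p = 0.00876). Over the alternatives its adjusted p reached 0.284.

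Between mutant CLP and mutant HSC, 6 members were called lower, Epor, Aqp1, Klf1, Gata1, Gfi1b and Car2, where 36% of all genes were lower and 21.8% higher. The differences were -2.49, -2.79, -1.42, -2.63, -1.13 and -4.07 in that order. Without mutant CLP replicate 1 the Klf1 difference was -0.83 and no longer called (adjusted p = 0.0737). With that library kept, Hbb-bs, Hbb-b2, Hba-a2 and Car1 had differences of 1.97, 1.36, 2.10 and -1.85 (SE 1.08 to 1.43) and were not called.

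The wider erythroid lists were counted over the same populations. Between wild-type MPP4 and wild-type HSC, where 23.3% of all genes were called lower and 16.1% higher, 11 of 29 erythroid regulators were called lower and 7 higher, and Gata2, the GATA factor of stem cells and early progenitors, averaged 14.3 ± 4.12 RPKM in MPP4 and 158 ± 5.01 RPKM in HSC. Of 31 tested membrane, enzyme and surface genes 16 were called lower and 1 higher, with Tfr2, a transferrin receptor that associates with the erythropoietin receptor, at 10.6 ± 3.33 RPKM in MPP4 and 78.2 ± 1.47 RPKM in HSC. Among 30 genes of erythropoietin receptor signalling, which many cytokine receptors share, 11 were called lower and 3 higher, and Cish, a feedback inhibitor induced by STAT5, averaged 11.9 ± 5.71 RPKM in MPP4 and 82.6 ± 56.1 RPKM in HSC. Of 25 haem and globin synthesis genes 4 were called lower and 3 higher. Tfrc, the main transferrin receptor for iron uptake, was among the higher ones at 12.7 ± 0.731 RPKM in MPP4 and 5.44 ± 1.78 RPKM in HSC.

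Between wild-type CLP and wild-type MPP4, where 8.38% of all genes were called lower and 4.77% higher, 7 of 29 regulators were called lower and 4 higher, and 6 of 31 membrane genes lower and 2 higher. Of the signalling genes 1 of 30 was called lower and 7 higher, and Tfrc was the 1 haem gene called, at 41.3 ± 2.53 RPKM in CLP. In the mutant, the counts between MPP4 and HSC, beside 23.1% of all genes lower and 16% higher, were 10 lower and 7 higher among regulators, 10 lower and 1 higher among membrane genes, 13 lower and 3 higher among signalling genes, and 3 lower and 4 higher among haem genes. Between mutant CLP and mutant MPP4, beside 16.4% of all genes lower and 7.86% higher, they were 8 lower and 4 higher, 13 lower and 2 higher, 5 lower and 6 higher, and 2 lower and 1 higher in the same order of lists.

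Every mutant MPP4 library held more Epor, Aqp1 and Car2 RNA than every wild-type MPP4 library, but no member passed the test between genotypes. All 10 members had a positive difference, with a median of 1.29 on the log2 scale, where 55.8% of all genes were positive and the median was 0.021. Members and the wider lists were chosen with earlier results of these data known. The 10 are also not separate observations, because the globin rows moved together over the libraries (Pearson r = 0.961 to 0.995). Epor, Aqp1 and Car2 also deviated together from their group means. The r of these deviations was 0.90 for Epor with Aqp1, 0.78 for Aqp1 with Car2 and 0.76 for Epor with Car2. Gfi1b went the other way, with r of -0.38, -0.22 and -0.20 with Epor, Aqp1 and Car2. The limma fit called 0 of 10 members, against 0.217% of all genes, and 4 of 10 had an unadjusted p under 0.05, against 8.14%. Epor averaged 2.81 ± 0.656 RPKM in mutants (n = 4) and 0.831 ± 0.648 RPKM in wild type (n = 3), a log2 difference of 1.10 (SE 0.33, adjusted p = 0.249 in limma). Aqp1 averaged 11.3 ± 4.15 RPKM in mutants and 3.20 ± 2.44 RPKM in wild type, a difference of 1.72 (SE 0.52, adjusted p = 0.249). Car2 averaged 325 ± 44.1 RPKM in mutants and 190 ± 53.0 RPKM in wild type, a difference of 0.80 (SE 0.29, adjusted p = 0.403). These are the 3 of 10 members whose mutant libraries all lay above the wild-type ones, as did those of 6.68% of all genes.

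Gata1 averaged 6.57 ± 4.42 RPKM in mutant MPP4 and 2.502 ± 1.47 RPKM in wild-type MPP4, a difference of 1.05 (SE 0.42, adjusted p = 0.484). Klf1 had a difference of 1.02 (SE 0.51, adjusted p = 0.646) and Car1 one of 1.63 (SE 1.16, adjusted p = 0.814). Gfi1b differed least, at 17.4 ± 3.00 RPKM in mutants and 17.3 ± 10.8 RPKM in wild type (0.15, SE 0.40, adjusted p = 0.985). The globins had differences of 1.48 to 1.57 with SEs of 1.38 to 1.54 (adjusted p = 0.865 to 0.894). Over 19 alternative settings, the adjusted p of Epor lay between 0.0688 and 0.808, that of Aqp1 between 0.0596 and 0.882 and that of Car2 between 0.0808 and 0.922, and 0 members were called in any of them. Single wild-type MPP4 libraries moved several of these differences. Without replicate 2, Hbb-bs, Hbb-b2 and Hba-a2 were at 0.52, 0.63 and 0.50 and Car1 at 3.15. Without replicate 3, Aqp1, Klf1, Gata1 and Car1 were at 1.10, 0.54, 0.63 and 0.81, and without replicate 1, Hba-a2 was at 2.25, Car1 at 0.94 and Gfi1b at 0.60.

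**Figure D4:**
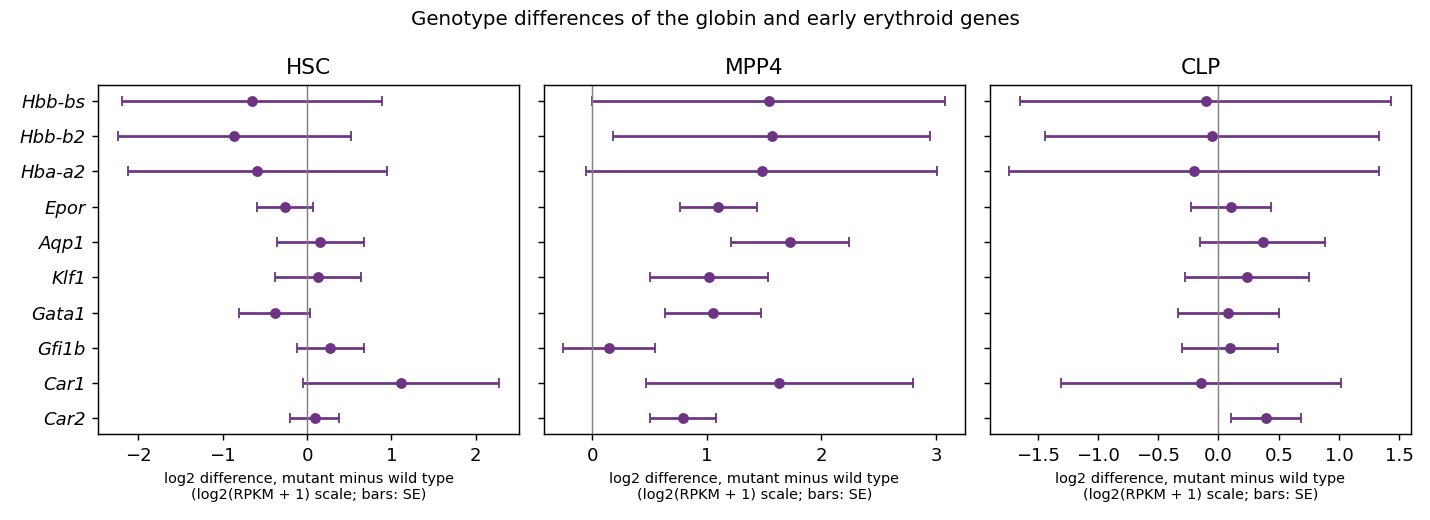
Log2 difference, mutant minus wild type, of the 10 members in HSC, MPP4 and CLP, with 1 panel per population. Points are the limma estimate on the log2(RPKM + 1) scale and bars its standard error, which rests on the spread over all 6 groups. The x axes differ between panels. In MPP4 all 10 points lie right of 0, from 0.15 for Gfi1b to 1.72 for Aqp1, and the bars of the globins are the widest together with those of Car1.

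Marker sums of other cells in MPP4 are given beside the members. The 5 HSC markers (Slamf1, Procr, Hlf, Mecom and Fgd5) summed to 53.0 to 62.0 RPKM in mutant MPP4 and 24.7 to 33.5 RPKM in wild-type MPP4, without overlap, and none was at 0. Hlf made up most of this sum, at 39.8 ± 3.81 RPKM in mutants and 19.9 ± 3.60 RPKM in wild type, and Fgd5 was the one with the lower mean in mutants, at 0.414 ± 0.240 and 0.794 ± 0.352 RPKM. The 4 MPP4 markers (Flt3, Cd48, Dntt and Satb1) summed to 1036 to 1198 RPKM in mutant MPP4 and 1359 to 1702 RPKM in wild-type MPP4, also without overlap. These markers do not single out MPP4. Their sums were higher in CLP, at 2111 to 2512 RPKM in mutant and 2235 to 2303 RPKM in wild-type libraries. Dntt averaged 527 ± 50.3 RPKM in mutants and 889 ± 149 RPKM in wild type, Cd48 125 ± 14.3 and 169 ± 18.0 RPKM, and Flt3 383 ± 17.5 and 384 ± 33.4 RPKM. Late erythroid markers summed to 42.9 to 115 RPKM in mutant MPP4 and 9.44 to 50.1 RPKM in wild-type MPP4. For megakaryocyte markers, 5 of 7 in the table, mutant MPP4 replicates 1 to 4 summed to 166, 13.9, 20.9 and 16.3 RPKM. Wild-type MPP4 replicates 1 to 3 summed to 169, 9.52 and 10.2 RPKM, and Gp1bb was at 0 in 1 library of each genotype. Replicate 1 of each genotype was also its highest MPP4 library in Gata1 (12.9 and 3.49 RPKM) and Gfi1b (20.5 and 29.6 RPKM). Neutrophil markers, 8 of 9 in the table, summed to 732 to 2194 RPKM in mutant and 575 to 1081 RPKM in wild-type MPP4. Mast cell and basophil markers were mostly absent, with 2 of 7 in the table and sums of 2.95 to 12.2 and 2.51 to 11.3 RPKM. The part of these cells in the erythroid values was not tested.

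In the erythroid membrane, enzyme and surface list, 28 of 31 tested genes had a positive difference in MPP4, with a median of 0.64, where 55.8% of all genes were positive. An unadjusted p under 0.05 was reached by 17, beside 8.14% of all genes, and 0 were called. Its genes with the smallest p were Tspan33, an erythroid tetraspanin, at 9.24 ± 3.57 RPKM in mutants and 3.02 ± 0.545 RPKM in wild type (adjusted p = 0.136), Rhag, the Rh-associated glycoprotein, at 5.72 ± 2.81 and 1.26 ± 0.756 RPKM (adjusted p = 0.296), and Cd24a (adjusted p = 0.298). Of 29 erythroid regulators 22 were positive, 7 had an unadjusted p under 0.05 and 0 were called, to be read beside the same shares. They were led by Nfia (adjusted p = 0.108), Nfe2 at 100.7 ± 3.83 RPKM in mutants and 78.6 ± 13.5 RPKM in wild type (adjusted p = 0.171) and Gata2 (adjusted p = 0.531). Of 25 haem and globin synthesis genes 18 were positive and 0 called, led by Blvrb (adjusted p = 0.249), Cpox (0.309) and Ppox (0.365). Of 30 erythropoietin signalling genes 20 were positive, with a median of 0.022 near that of all genes, and Pim2 (adjusted p = 0.567), Socs3 (0.693) and Ptpn6 (0.718) had the smallest p.

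In the megakaryocyte and platelet list 1 of 28 genes was called. Gng11 averaged 10.5 ± 3.76 RPKM in mutant MPP4 and 2.89 ± 0.679 RPKM in wild-type MPP4 (log2 difference 1.53, adjusted p = 0.00203). With a pseudocount of 0.1, or with the MPP4 libraries fitted alone, 0 of the 28 were called. Nrgn and Cd9 followed in that list (adjusted p = 0.412 and 0.418). Among 8 mast cell and basophil genes (led by Kit, Hdc and Ltc4s) and 12 neutrophil granule genes (led by Gstm1, Ctsg and Ngp) 0 were called.

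In HSC no member passed the test between genotypes. The limma fit called 0 of 10 members, against 0.0522% of all genes, and 0 of 10 had an unadjusted p under 0.05, against 4.45%. Epor averaged 11.8 ± 1.97 RPKM in mutants and 14.3 ± 2.61 RPKM in wild type, a log2 difference of -0.26 (SE 0.33), and Gata1 16.8 ± 2.51 and 22.5 ± 5.22 RPKM, a difference of -0.39 (SE 0.42). Aqp1, Klf1, Gfi1b, Car2 and Car1 had differences of 0.16, 0.13, 0.28, 0.09 and 1.12. The globins had differences of -0.59 to -0.86 (SE 1.38 to 1.54), and leaving out wild-type HSC replicate 2 turned all 3 positive, with Hbb-bs at 1.02, Hbb-b2 at 0.42 and Hba-a2 at 1.14. Without mutant HSC replicate 1, Hbb-bs was at 0.40 and Hba-a2 at 0.53, and without wild-type HSC replicate 3, Car1 was at -0.0065. Of the other lists 0 genes were called. Tfrc, at 8.83 ± 1.66 RPKM in mutants and 5.44 ± 1.78 RPKM in wild type, had the smallest adjusted p among the erythroid lists (0.447), with Cpox and Slc25a39 next in the haem list. Ermap, Trim58 and Slc2a1 led the membrane list, Nfia, Sox6 and E2f2 the regulators, and Pik3r1, Sh2b3 and Cbl the signalling list. In the megakaryocyte, mast cell and neutrophil lists the smallest p belonged to Rap1b, Mef2c and Lat, to Ms4a2, Mitf and Csf2rb, and to Ctsg, Prtn3 and S100a8.

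In CLP no member passed the test between genotypes either, with 0 of 10 called where 0% of all genes were, and 0 with an unadjusted p under 0.05, against 4.41%. Car2 averaged 53.4 ± 25.6 RPKM in mutants and 36.8 ± 8.16 RPKM in wild type, a log2 difference of 0.40 (SE 0.29). The differences of Aqp1, Klf1, Epor, Gfi1b and Gata1 were 0.37, 0.24, 0.10, 0.09 and 0.08, that of Car1 was -0.14, and those of the globins ran from -0.05 to -0.20. These values rest on mutant CLP replicate 1, without which Hbb-bs was at 1.41, Hbb-b2 at 1.48, Hba-a2 at 1.22, Aqp1 at 0.96, Klf1 at 0.82, Car2 at 0.77, Epor and Gata1 at 0.48 and Car1 at 0.61, none called. Gfi1b was at 0.80 without wild-type CLP replicate 1 and at -0.47 without wild-type CLP replicate 2. In the other lists 0 genes were called. Icam4, Mgst3 and Tfr2 led the membrane list, Socs3, Ptpn6 and Vav1 the signalling list, Lmo4, Lmo2 and Nfe2 the regulators, and Snx3, Steap3 and Blvrb the haem list. Cd9, F2r and Thbs1 led the megakaryocyte list, Csf2rb, Ltc4s and Cpa3 the mast cell list, and Lyz2, Mmp9 and Gstm1 the neutrophil list.

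The genotype difference itself was compared between populations. Epor differed in its genotype difference between MPP4 and HSC by 1.36 (SE 0.47, unadjusted p = 0.00909), Gata1 by 1.44 (SE 0.60, unadjusted p = 0.0255) and Aqp1 by 1.56 (SE 0.73, unadjusted p = 0.0448), and Car2 by 0.71 (SE 0.41, unadjusted p = 0.0993). Klf1, Car1 and Gfi1b differed by 0.89, 0.52 and -0.12. Without wild-type MPP4 replicate 3 the Aqp1 value was 0.94. After Benjamini-Hochberg adjustment in limma none was called (adjusted p = 1.00 for each), and 3.79% of all genes had an unadjusted p under 0.05 and 0% were called. Between CLP and MPP4 the same differences were -0.999 for Epor (SE 0.47, unadjusted p = 0.0462), -1.36 for Aqp1, -0.97 for Gata1, -0.40 for Car2, -0.78 for Klf1, -0.057 for Gfi1b and -1.78 for Car1, with an adjusted p of 0.998 each. Without mutant CLP replicate 1, Epor was at -0.63, Aqp1 at -0.77 and Gata1 at -0.57. Without wild-type MPP4 replicate 3, Aqp1 was at -0.74 and Gata1 at -0.55, and without mutant MPP4 replicate 1, Gata1 was at -0.62. For the globins these differences were 2.07 to 2.43 between MPP4 and HSC and -1.62 to -1.68 between CLP and MPP4, with SEs of 1.96 to 2.18. The globin values between CLP and MPP4 include mutant CLP replicate 1 and are not given without it. At this spread between libraries, estimated over all 6 groups, differences of this size were not detectable in the globins.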

How the data were processed

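RNA of sorted cells was measured in 21 libraries. Per the labels' protocols, cells were sorted into lysis buffer, cDNA was made from their total RNA by SMART-seq, and NexteraXT gave the libraries; the labels give the molecule as polyA RNA. The submitters' processing notes name STAR and mm10. The sources used here do not give the counter, annotation or strand setting. The authors deposited 1 table of RPKM, a unit that divides reads by transcript length and mapped reads. Depth is unknown, and read numbers could not be recovered from the RPKM steps, so no counting interval is given. SMART-seq amplifies little RNA, which makes rare transcripts noisy.

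From that table, 16 symbols turned into dates by a spreadsheet were restored through Entrez identifiers. Genes with at least 1 RPKM in 3 libraries were kept (11496 of 11628). A model of 6 group means on the log2(RPKM + 1) scale was fitted by limma-trend (limma 3.58.1 in R 4.3.3), with 15 residual and 4.62 prior degrees of freedom. On this scale the change of a gene near or under 1 RPKM comes out too small. Tests were two-sided, with Benjamini-Hochberg adjustment over all kept genes within a comparison. The fit was tested on simulated data, drawn for each gene with a single mean and spread over all libraries. Those data lacked the unequal spreads of groups and the correlation between genes seen here, so they do not test the fit under these.

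Members and lists were chosen with earlier results of these data known. Some genes are not reported here; they stayed in the fit and were left out of the lists, marker sums and likeness ranking. All 10 members are named in every comparison given. Of the other lists, the called genes and the 3 with the smallest p are named in genotype comparisons, and in population comparisons the counts are given with examples. For likeness, the 5 genes with the highest Pearson r outside the erythroid lists are named. Same-numbered libraries deviated together (r above 0.1 for every pair) in 4 of 6 population comparisons, the wild-type CLP with MPP4, wild-type CLP with HSC, mutant MPP4 with HSC and mutant CLP with HSC ones, where the lowest r was 0.217, 0.131, 0.121 and 0.103; the block is used there only as an alternative. Alternatives changed the pseudocount, filter, scaling, library weights, sex and age terms, replicate block, groups fitted and libraries left out. The fixed block was the replicate number over both genotypes, and the random block the replicate number within a genotype. Both blocks joined the mutant replicate 4 libraries, although the CLP one was from a mouse of another age than the HSC and MPP4 ones.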

Additional observations from a re-analysis of the deposited data

Results flagged for a closer look

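Within the groups of 4 libraries, 3 values stood apart from the other libraries of their group by a gap larger, as a share of the group's range, than Dixon's critical value, among 30 gene and group combinations tested; chance alone marks about 1 in 20. Epor in mutant HSC replicate 1 was 14.717 RPKM, above the other 3 mutant HSC libraries. Aqp1 in mutant CLP replicate 1 was 0.089 RPKM, below the other 3 mutant CLP libraries. Gata1 in mutant HSC replicate 4 was 13.061 RPKM, below the other 3 mutant HSC libraries.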

How the results depend on the processing

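Members called between genotypes, and between populations in their genotype difference, numbered 0 in every alternative run. Of called member differences, none changed direction in any alternative. Counts of members moved by over 1.5 times between mutant MPP4 and mutant HSC, where 4 were called: 7 with the replicate block as a random effect, 8 with the compared groups alone, and 4 to 7 with 1 library left out. Over left-out libraries, the count was 1 to 2 between wild-type CLP and MPP4 (1 with all) and 1 to 4 between mutant CLP and MPP4 (3 with all). The Gata1 call between mutant CLP and mutant MPP4 was also lost with quantile normalization, library weights and the compared groups alone (adjusted p = 0.0804, 0.0626 and 0.0770).

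Uncalled differences that changed sign, among those followed over the alternatives, were as follows. The globins and Car1 were not followed in comparisons of CLP with MPP4 or HSC. With library weights, the genotype difference in HSC was -0.072 for Aqp1 and -0.12 for Klf1, that in CLP was -0.13 for Gfi1b, and the wild-type MPP4 minus HSC difference was -0.69 for Hbb-bs, -0.998 for Hbb-b2 and -0.63 for Hba-a2. With the replicate block as a fixed term, Car2 in HSC was -0.012 and Car1 in CLP 0.031. With a sex term, Hbb-bs in CLP was 0.029 and Hbb-b2 0.057. With a pseudocount of 0.1, Epor in CLP was -0.094 and Gata1 -0.038. The cause of these changes was not tested.

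Leaving out 1 library at a time, genotype differences in HSC ran from -1.82 to 1.02 for Hbb-bs, -1.87 to 0.42 for Hbb-b2, -1.76 to 1.14 for Hba-a2, -0.12 to 0.31 for Aqp1 and -0.0065 to 1.81 for Car1. In MPP4, Gfi1b ran from -0.17 to 0.60. In CLP they ran from -0.85 to 1.41 for Hbb-bs, -0.85 to 1.48 for Hbb-b2, -0.89 to 1.22 for Hba-a2, -0.22 to 0.48 for Epor, -0.10 to 0.82 for Klf1, -0.21 to 0.48 for Gata1, -0.47 to 0.80 for Gfi1b and -0.96 to 0.61 for Car1. The wild-type MPP4 minus HSC difference of Hbb-b2 ran from -0.67 to 1.62. In HSC the highest globin values came without wild-type replicate 2, and in CLP without mutant replicate 1.

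Of all genes, 25 were called between genotypes in MPP4; fitting the MPP4 libraries alone gave 3, a pseudocount of 0.1 gave 0 and one of 0.5 gave 14, terms for sex gave 42 and for sex with age 48, and weighting the libraries gave 184. In HSC, 6 were called, against 12 with quantile normalization, 21 with library weights and 0 with the HSC libraries alone. Same-numbered libraries of the 2 genotypes are different mice, and their lowest deviation correlation was -0.155, 0.018 and 0.036 in HSC, MPP4 and CLP, so the number pairs nothing there; with the replicate block 0 members were called. Between wild-type MPP4 and HSC, where the lowest r was 0.094, the block added Klf1 to the calls, for a count of 6 instead of 5.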
